A study of Mus musculus with 4 samples.

Results

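The genes described here are the ligands, receptors, antagonists and effectors of the Wnt signalling pathway, followed by RNA-Seq through the first days of brown adipogenesis. They were chosen by name, as 52 of the 22463 gene symbols in the files, and comprise 15 Wnt ligands, 3 R-spondins, 9 secreted antagonists, 14 receptors or co-receptors and 11 intracellular effectors or regulators. Of these, 38 exceeded 1 RPKM (the read number scaled to exon length and library size) in at least 1 library and are called expressed below.

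The cells were brown preadipocytes, precursors of brown fat cells, taken from C57BL/6J mouse embryos at E18.5 and immortalized with the SV40 T antigen, a viral protein that inactivates p53 and RB and is shared by all libraries. The line lacks *Mll3*, an H3K4 methyltransferase gene, and has both alleles of its close relative *Mll4* (listed as *Kmt2d*) flanked by loxP sites (*Mll3*-/- *Mll4* f/f). Infection with an adenovirus expressing GFP left *Mll4* in place (Ad-GFP cells, genotype *Mll3*-/-, labelled WT), whereas an adenovirus expressing the Cre recombinase deleted it (Ad-Cre cells, genotype *Mll3*-/-;*Mll4*-/-, labelled MLL4 KO). All 4 libraries thus have the *Mll3*-/- genotype, and the Ad-GFP cells are a control for *Mll4* alone. Day 0 (D0) was 2 days after the cells became confluent. Day 2 (D2) followed treatment with insulin, T3, indomethacin, dexamethasone and IBMX, agents that start fat cell differentiation. Each of the 4 combinations of virus and day was sequenced as 1 library, so that differences between conditions could not be checked against replicates and carry no p-value.

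Wnt ligands are secreted lipid-modified proteins that bind Frizzled receptors together with LRP5 or LRP6, or with ROR kinases. In the canonical branch the signal stops the destruction complex of APC, AXIN and kinases from degrading β-catenin, which then joins TCF/LEF factors on DNA, while other Wnt proteins act without β-catenin. R-spondins keep Frizzled proteins on the cell surface, secreted antagonists of the SFRP and DKK families bind the ligands or the co-receptors, and in fat precursors canonical Wnt signalling is known as a brake on adipogenesis.

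The deposited counts summed to between 15831915 and 22099995 reads per library, of which 38985 to 56622 fell on the 52 genes. On a member transcript of median length, 3 reads corresponded to between 0.0367 and 0.0512 RPKM. Reads over the whole *Kmt2d* transcript numbered 6304, 8530, 6316 and 5595 with Ad-GFP at D0 and D2 and with Ad-Cre at D0 and D2, an order kept below, but most of the transcript lies outside the deleted exons and this count does not check the genotype. On *Kmt2c*, the current symbol of *Mll3*, 451 to 1224 reads were counted, and a count over the whole transcript does not check that disruption either. The adipocyte markers (*Pparg*, *Cebpa*, *Fabp4*, *Plin1*, *Adipoq*, *Lpl* and *Cd36*) summed to 30.4, 2005, 15.8 and 492 RPKM in the same order, and 7 of 7 were over 2.5-fold lower with Ad-Cre than with Ad-GFP at D2 (9.61% of all 11861 expressed genes). The 6 preadipocyte markers summed to 620.0, 146, 326 and 129.8 RPKM, and 4 of them, *Pdgfra*, *Dlk1*, *Cd34* and *Ly6a*, were over 2.5-fold lower with Ad-Cre at D0 (3.8%). Of the others, *Thy1* was lower there, at −0.69 (−0.74 to −0.64) on the log2 scale, and *Pdgfrb* was higher, at 0.45 (0.41 to 0.49), the parentheses holding a counting interval. Fewer cells of a type and less RNA per cell cannot be told apart in such bulk libraries, and what these marker levels contribute to the Wnt gene values was not tested. Of the brown fat markers, *Ucp1* had at most 1 read and *Cidea* none, while *Ebf2* reached 16.1 RPKM. *Prdm16* measured 0.554, 2.14, 0.691 and 0.677 RPKM in the same library order (82, 424, 116 and 105 reads). Its log2 ratio of Ad-Cre over Ad-GFP at D2 was −1.66 (−1.99 to −1.35). Muscle markers summed to 1.27 to 2.68 RPKM, with 0 reads for *Myog* and *Pax7*, 97 to 130 for *Pax3*, and 19, 5, 0 and 49 for *Des*. Endothelial markers summed to 0.0536 to 0.345 RPKM, with 0 reads for *Cldn5*, and macrophage markers to 0.487 to 2.58 RPKM, with 0 reads for *Adgre1* and *Ptprc* and 16 to 74 for *Cd14*. Chondrocyte and osteoblast markers summed to 5.96 to 12.2 RPKM. Among them *Ibsp* had 0 reads, *Col2a1* measured 2.22, 0.102, 6.14 and 0.767 RPKM, and *Sox9* 9.65, 5.50, 2.497 and 10.5 RPKM. The Ad-Cre library of D2 stood apart by transcript length and GC content. From the shortest to the longest of 5 equal bins of expressed genes, the median log2 Ad-Cre over Ad-GFP ratio of D2 went from 0.37 to −0.68, and from the lowest to the highest of 5 bins of GC content from −0.65 to 0.49. At D0 the corresponding medians lay between −0.11 and 0.06. Values with these trends divided out are given below where they change a call.

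Promoter sequence is shown for *Axin2*, *Lef1* and *Wnt11*. *Axin2* and *Lef1* were past 2.5-fold in all 4 comparisons below. Between Ad-GFP and Ad-Cre cells at D0 this rested on few reads, 9 and 4 for *Axin2* and 6 and 25 for *Lef1*. *Wnt11* holds the TCF/LEF recognition motif in the promoter of its first start site. It was past the cutoff in 3 comparisons, as were *Dkk3*, *Nkd2*, *Wnt10b* and *Wnt4*. The sequences are the 250 bases before the RefSeq start site on build GRCm38.p6, plus strand, at chr11:108920099-108920348 for *Axin2*, chr3:131110047-131110296 for *Lef1* and chr7:98834862-98835111 for *Wnt11*. Capitals mark the motif CTTTGAT, searched on both strands and found here on the minus strand, where it reads ATCAAAG on the plus strand.
Axin2: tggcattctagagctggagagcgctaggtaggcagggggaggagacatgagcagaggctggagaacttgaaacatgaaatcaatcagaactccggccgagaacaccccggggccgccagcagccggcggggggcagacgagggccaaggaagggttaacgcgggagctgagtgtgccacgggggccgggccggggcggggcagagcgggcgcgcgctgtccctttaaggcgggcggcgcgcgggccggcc
Lef1: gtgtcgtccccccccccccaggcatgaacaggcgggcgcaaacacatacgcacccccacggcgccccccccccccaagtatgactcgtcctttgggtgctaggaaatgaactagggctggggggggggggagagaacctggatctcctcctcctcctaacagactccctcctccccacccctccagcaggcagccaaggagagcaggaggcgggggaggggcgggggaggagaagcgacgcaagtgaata
Wnt11: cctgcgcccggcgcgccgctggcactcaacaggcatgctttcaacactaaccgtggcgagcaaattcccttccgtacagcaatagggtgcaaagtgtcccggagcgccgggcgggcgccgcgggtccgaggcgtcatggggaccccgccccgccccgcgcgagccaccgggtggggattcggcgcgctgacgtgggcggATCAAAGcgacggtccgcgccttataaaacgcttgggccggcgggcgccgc
The motif starts at position −51 of the *Wnt11* promoter and is absent from the printed stretches of *Axin2* and *Lef1*. Promoters of 300 bases (250 before to 50 after the start site) were found for 35 of the 52 genes, 44 promoters in all. Of these, 2 (4.55%), a promoter of *Wnt11* and a promoter of *Wnt5b*, held the motif, against 1225 of 32851 promoters of all genes (3.73%). The other promoters found for *Wnt11* and *Wnt5b* did not hold it. A match describes letters only, and a promoter of this length leaves out distant sites.

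Ratios of RPKM are given on the log2 scale, each followed in parentheses by an exact 95% interval from the read counts, which covers counting error only and not the variation between cultures. A gene is counted as higher or lower past a ratio of 2.5. From D0 to D2, 8 of the 38 expressed Wnt genes were higher with Ad-GFP (8.18% of all 11861 expressed genes) and 12 were lower (12.6%). In Ad-Cre cells 11 were higher (9.34% of all expressed genes) and 8 lower (10.2%). Between Ad-Cre and Ad-GFP cells at D0, 2 were higher (1.75%) and 8 lower (3.8%). At D2, 8 were higher with Ad-Cre (9.17%) and 2 lower (9.61%). The shares of the 38 were 21.1% and 31.6% with Ad-GFP over time, 28.9% and 21.1% with Ad-Cre over time, 5.26% and 21.1% at D0, and 21.1% and 5.26% at D2. The 4 comparisons share libraries, so that a single library counts in 2 of them.

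Part of these counts follows from the threshold of 1 RPKM, since a gene above it in a single library only had to differ from the others. Of the 8 genes lower with Ad-Cre at D0, *Wnt5b*, *Wnt9a*, *Wnt10b* and *Sfrp4* exceeded 1 RPKM in no library other than Ad-GFP cells at D0. Of the 8 higher with Ad-Cre at D2, *Wnt4*, *Wnt6*, *Wnt11* and *Rspo1* exceeded it in that library alone, and these 4 are also among the 11 higher at D2 within Ad-Cre cells. *Wnt10b* and *Sfrp4* are also among the 12 lower over time with Ad-GFP. *Axin2* exceeded 1 RPKM with Ad-GFP at D2 alone, and is among the 8 higher over time with Ad-GFP and the 2 lower with Ad-Cre at D2. *Wnt4* and *Wnt11*, also among the 8 higher over time with Ad-GFP, exceeded 1 RPKM in neither Ad-GFP library. A threshold applied to the Ad-GFP libraries left 6 higher over time with Ad-GFP (8.24% of all genes under that setting). Over all 38, the median log2 ratio of D2 to D0 was −0.30 with Ad-GFP (0.14 for all expressed genes) and 0.15 with Ad-Cre (−0.01). The median of Ad-Cre over Ad-GFP cells was 0.02 at D0 (−0.01) and −0.02 at D2 (−0.14). By contrast, 9 of the 38 stayed within 2.5-fold in all comparisons (*Axin1*, *Ctnnb1*, *Fzd3*, *Fzd8*, *Lrp6*, *Ror2*, *Tcf7l2*, *Wnt2b* and *Znrf3*). With the length and GC trends divided out, *Tcf7l2* was past it in the comparison of the populations at D2, at 1.54 against 0.86 (0.72 to 1.00) before.

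**Figure D1:**
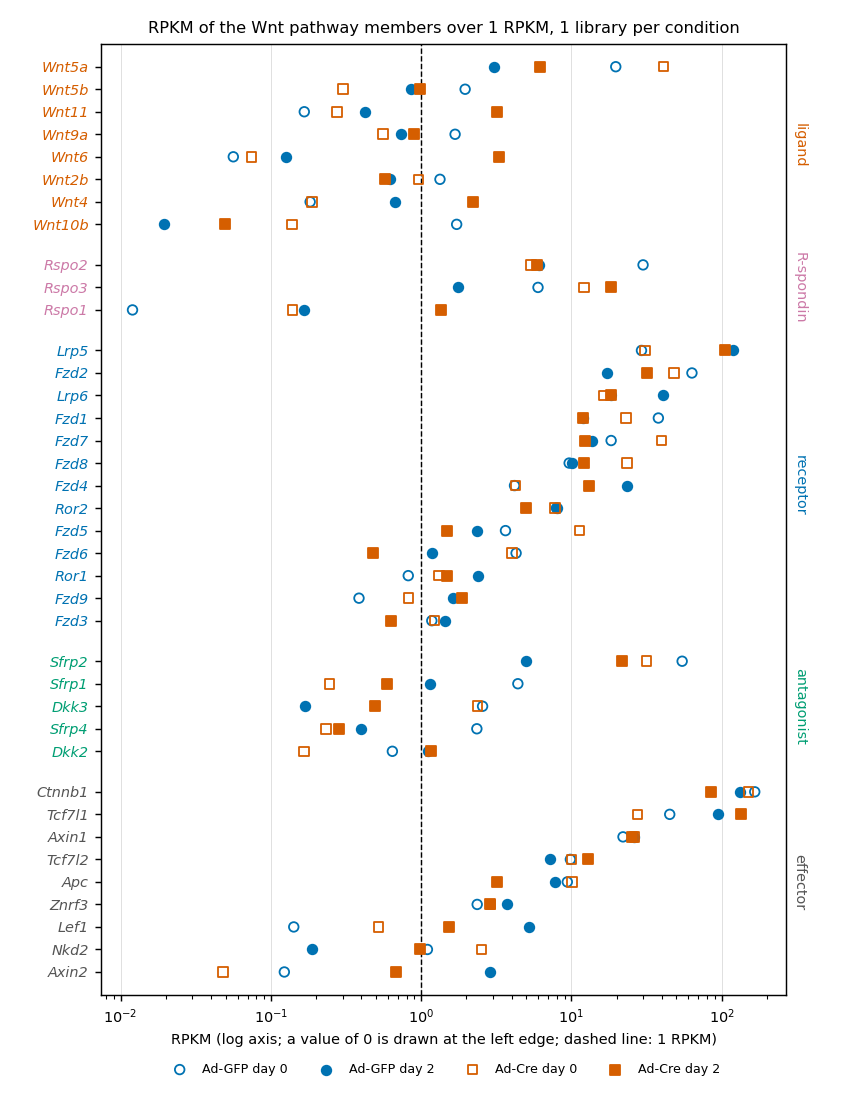
Level of the 38 expressed Wnt genes in each library, in RPKM on a log axis, grouped by role; circles are Ad-GFP cells and squares Ad-Cre cells, open at D0 and filled at D2, and the dashed line marks 1 RPKM. *Wnt5a* leads the ligands, *Sfrp2* the antagonists at up to 54.6 RPKM and *Ctnnb1* the effectors at up to 166 RPKM, and *Rspo1*, with 0 reads with Ad-GFP at D0, is drawn there at the left edge.

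Among the ligands, *Wnt5a* had the highest level in each of the 4 libraries. It is the prototype of Wnt proteins that act without β-catenin, and lies at chr14:29317936-29340633 on the plus strand of NCBI37/mm9 (NM_009524). *Wnt5a* had 19.7 RPKM at D0 and 3.05 at D2 with Ad-GFP (1450 and 300 reads), and 40.9 at D0 and 6.16 at D2 with Ad-Cre (3414 and 475 reads). It was low at D2 in both cell populations and higher with Ad-Cre on either day. The log2 ratio of D2 to D0 was −2.69 (−2.88 to −2.51) with Ad-GFP and −2.73 (−2.87 to −2.59) with Ad-Cre, 6.46-fold and 6.64-fold lower. Ad-Cre over Ad-GFP gave 1.05 (0.96 to 1.14) at D0 and 1.01 (0.80 to 1.23) at D2, both short of 2.5-fold; with the length and GC trends divided out, the D2 value passed the cutoff, at 1.75.

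Summed over the 15 ligands, the level was 27.2 RPKM with Ad-GFP at D0 and 6.67 at D2, and 43.7 and 17.8 RPKM with Ad-Cre. *Wnt5a* made up 72.7%, 45.8%, 93.8% and 34.7% of these sums. The number of ligands over 1 RPKM was 5 and 1 with Ad-GFP at D0 and D2, and 1 and 4 with Ad-Cre. The ligands over 1 RPKM besides *Wnt5a* were thus different genes in the Ad-GFP library of D0 (*Wnt2b*, *Wnt5b*, *Wnt9a* and *Wnt10b*) and the Ad-Cre library of D2 (*Wnt4*, *Wnt6* and *Wnt11*).

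*Wnt10b*, a canonical ligand known for holding preadipocytes undifferentiated, lies at chr15:98602184-98608581 on the minus strand of NCBI37/mm9 (NM_011718). It had 1.72 RPKM at D0 and 0.0195 at D2 with Ad-GFP (66 and 1 reads), and 0.138 at D0 and 0.0498 at D2 with Ad-Cre (6 and 2 reads). Most reads came from Ad-GFP cells at D0. The log2 ratio of D2 to D0 with Ad-GFP was −6.46 (−11.79 to −3.93), a wide interval because it rests on 1 read, and Ad-Cre over Ad-GFP at D0 gave −3.64 (−5.14 to −2.44). In Ad-Cre cells the day ratio of −1.47 (−4.81 to 1.01) was past 2.5-fold but its interval held 0, and no ratio is given between the 1 and 2 reads of D2.

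*Wnt5b*, a close relative of *Wnt5a*, had 1.96 RPKM at D0 and 0.862 at D2 with Ad-GFP (80 and 47 reads), and 0.303 at D0 and 0.982 at D2 with Ad-Cre (14 and 42 reads). Its level was lowest with Ad-Cre at D0, at about 1 RPKM on D2 in both, and highest with Ad-GFP at D0. Over time *Wnt5b* went in opposite directions, with log2 ratios of −1.19 (−1.74 to −0.65) with Ad-GFP and 1.70 (0.80 to 2.69) with Ad-Cre, the latter within 2.5-fold, at 1.27, once length and GC trends were divided out. Ad-Cre over Ad-GFP was −2.70 (−3.63 to −1.87) at D0, 6.48-fold lower, and 0.19 (−0.45 to 0.82) at D2. *Wnt9a*, a ligand known from joint formation, had 1.68 RPKM at D0 and 0.734 at D2 with Ad-GFP (96 and 56 reads), and 0.556 at D0 and 0.903 at D2 with Ad-Cre (36 and 54 reads). It resembled *Wnt5b* in order, with Ad-Cre over Ad-GFP at −1.60 (−2.19 to −1.03) at D0 and 0.30 (−0.27 to 0.86) at D2.

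*Wnt4*, *Wnt6* and *Wnt11* were low in the 3 other libraries and highest with Ad-Cre at D2. *Wnt6*, which together with WNT10A and WNT10B is known to restrain adipocyte differentiation, lies at chr1:74818466-74831893 on the plus strand of NCBI37/mm9 (NM_009526) and had 0.0562 RPKM at D0 and 0.126 at D2 with Ad-GFP (2 and 6 reads), and 0.0743 at D0 and 3.30 at D2 with Ad-Cre (3 and 123 reads). Its D2 to D0 log2 ratio with Ad-Cre was 5.47 (3.89 to 7.77), 44.4-fold, and Ad-Cre over Ad-GFP at D2 gave 4.71 (3.54 to 6.18), 26.1-fold. In Ad-GFP cells the day ratio rested on 2 and 6 reads and its interval held 0, at 1.17 (−1.32 to 4.51).

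*Wnt11*, which signals mainly through cell polarity and calcium routes, lies at chr7:105983622-106003705 on the plus strand of NCBI37/mm9 (NM_009519), and had 0.167 RPKM at D0 and 0.421 at D2 with Ad-GFP (8 and 27 reads), and 0.276 at D0 and 3.20 at D2 with Ad-Cre (15 and 161 reads). It was higher at D2 in both populations, and more so with Ad-Cre. The log2 ratio of D2 to D0 was 1.34 (0.16 to 2.69) with Ad-GFP, just past 2.5-fold and within it under edgeR's TMM scaling of library sizes, and 3.54 (2.77 to 4.41) with Ad-Cre. Ad-Cre over Ad-GFP was 0.72 (−0.60 to 2.17) at D0 and 2.93 (2.33 to 3.57) at D2. *Wnt4*, a ligand of kidney and reproductive tract development, had 0.183 RPKM at D0 and 0.671 at D2 with Ad-GFP (12 and 59 reads), and 0.188 at D0 and 2.22 at D2 with Ad-Cre (14 and 153 reads). The order of its libraries was the same as for *Wnt11*, with day ratios of 1.88 (0.97 to 2.91) and 3.56 (2.77 to 4.47) and an Ad-Cre over Ad-GFP ratio of 1.72 (1.28 to 2.18) at D2. In 5.50% of the 50-base windows of the *Wnt4* transcript the sequence also matched elsewhere in the genome, so that its reads are less certain than those of the other ligands, which had no such window. *Wnt2b*, the remaining expressed ligand, measured 1.33, 0.621, 0.961 and 0.574 RPKM in the library order given above and stayed within 2.5-fold.

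R-spondins bind LGR receptors and remove the ubiquitin ligases that take Frizzled proteins off the membrane. *Rspo2* had 30.0 RPKM at D0 and 6.04 at D2 with Ad-GFP (1722 and 464 reads), and 5.40 at D0 and 5.94 at D2 with Ad-Cre (352 and 358 reads). Ad-GFP cells at D0 stood alone, and the other 3 libraries lay between 5.40 and 6.04 RPKM. *Rspo2* was 4.96-fold lower at D2 with Ad-GFP, a log2 ratio of −2.31 (−2.46 to −2.16), against 0.14 (−0.08 to 0.35) with Ad-Cre, and Ad-Cre over Ad-GFP was −2.47 (−2.64 to −2.31) at D0 and −0.02 (−0.23 to 0.18) at D2. The Ad-Cre library of D0, low in *Rspo2* and in *Sfrp1* and *Sfrp4* below, also had the lower preadipocyte marker sum of that day. Of the 38 expressed Wnt genes, 19 had a log2 ratio of Ad-Cre over Ad-GFP above 0 at D0 and 18 below. A link between these genes and the marker sum was not tested.

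*Rspo3*, which lies at chr10:29172915-29255673 on the minus strand of NCBI37/mm9 (NM_028351), had 5.99 RPKM at D0 and 1.76 at D2 with Ad-GFP (247 and 97 reads), and 12.1 at D0 and 18.4 at D2 with Ad-Cre (566 and 796 reads). It was higher with Ad-Cre than with Ad-GFP on both days, and moved apart over time, lower at D2 with Ad-GFP and higher with Ad-Cre. The day ratios were −1.77 (−2.12 to −1.42) and 0.61 (0.45 to 0.76), and Ad-Cre over Ad-GFP was 1.01 (0.80 to 1.24) at D0 and 3.39 (3.08 to 3.71), or 10.5-fold, at D2. *Rspo1* had no read with Ad-GFP at D0, 7 reads (0.166 RPKM) at D2, and 5 (0.140) and 45 (1.36) with Ad-Cre. Against 3 reads, which a count of 0 allows, Ad-GFP cells at D2 were 1.75-fold and Ad-Cre cells at D0 1.47-fold higher than Ad-GFP cells at D0. These values take the 7 and 5 reads as exact. With their counting error included, the intervals began at 0.11 and −0.31 on the log2 scale, and the latter held 0. In Ad-Cre cells *Rspo1* was 9.74-fold higher at D2 than at D0, and 8.19-fold higher than with Ad-GFP at D2. The leading R-spondin thus differed, with *Rspo2* at 83.3% and 75.8% of the summed R-spondin level with Ad-GFP and 30.6% and 23.1% with Ad-Cre.

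Of the 5 expressed antagonists, 4 were over 2.5-fold lower at D2 with Ad-GFP (12.6% of all expressed genes), and 1, *Dkk3*, with Ad-Cre (10.2%). *Sfrp2*, a secreted Frizzled-related protein that binds Wnt ligands, lies at chr3:83570243-83578238 on the plus strand of NCBI37/mm9 (NM_009144), and had 54.6 RPKM at D0 and 4.98 at D2 with Ad-GFP (1878 and 229 reads), and 31.6 at D0 and 21.8 at D2 with Ad-Cre (1232 and 788 reads). Ad-GFP cells at D2 were low and the other 3 libraries high. The day ratio was −3.45 (−3.66 to −3.26) with Ad-GFP, 11.0-fold lower, and −0.53 (−0.66 to −0.40) with Ad-Cre. Ad-Cre cells had less *Sfrp2* at D0, at −0.79 (−0.90 to −0.69), and 4.39-fold more at D2, at 2.13 (1.92 to 2.35). *Sfrp2* made up 62.9% to 90.2% of the summed antagonist level in each library.

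*Sfrp1*, another secreted Wnt binder, had 4.40 RPKM at D0 and 1.14 at D2 with Ad-GFP (331 and 115 reads), and 0.246 at D0 and 0.596 at D2 with Ad-Cre (21 and 47 reads). Its level was highest with Ad-GFP at D0 and lower with Ad-Cre than with Ad-GFP on both days. *Sfrp1* had day ratios of −1.94 (−2.26 to −1.63) with Ad-GFP and 1.28 (0.51 to 2.09) with Ad-Cre. The latter was just short of 2.5-fold and past it at 1.51 with the length and GC trends divided out, and also when scaled by summed counts. Ad-Cre over Ad-GFP was −4.16 (−4.87 to −3.52) at D0, 17.9-fold lower, and −0.94 (−1.46 to −0.44) at D2. *Sfrp4* had 2.35 RPKM at D0 and 0.396 at D2 with Ad-GFP (71 and 16 reads), and 0.233 at D0 and 0.284 at D2 with Ad-Cre (8 and 9 reads). Ad-GFP cells at D0 were again highest, at 10.1-fold the Ad-Cre level of that day, a log2 ratio of −3.33 (−4.60 to −2.28), and 5.93-fold that of D2. In *Sfrp4*, 3.85% of the windows matched elsewhere in the genome.

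*Dkk3*, a divergent Dickkopf protein, had 2.56 RPKM at D0 and 0.168 at D2 with Ad-GFP (148 and 13 reads), and 2.37 at D0 and 0.496 at D2 with Ad-Cre (155 and 30 reads). It was lower at D2 in both populations, at −3.93 (−4.87 to −3.11) with Ad-GFP and −2.26 (−2.87 to −1.68) with Ad-Cre, and 2.94-fold higher with Ad-Cre at D2. *Dkk2*, which binds LRP5 and LRP6, had 0.643 RPKM at D0 and 1.104 at D2 with Ad-GFP (41 and 94 reads), and 0.166 at D0 and 1.17 at D2 with Ad-Cre (12 and 78 reads). Ad-Cre cells at D0 were lowest and the 2 libraries of D2 were close to each other, at 0.08 (−0.37 to 0.53). The day ratio was 0.78 (0.23 to 1.34) with Ad-GFP and 2.81 (1.93 to 3.83) with Ad-Cre.

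**Figure D2:**
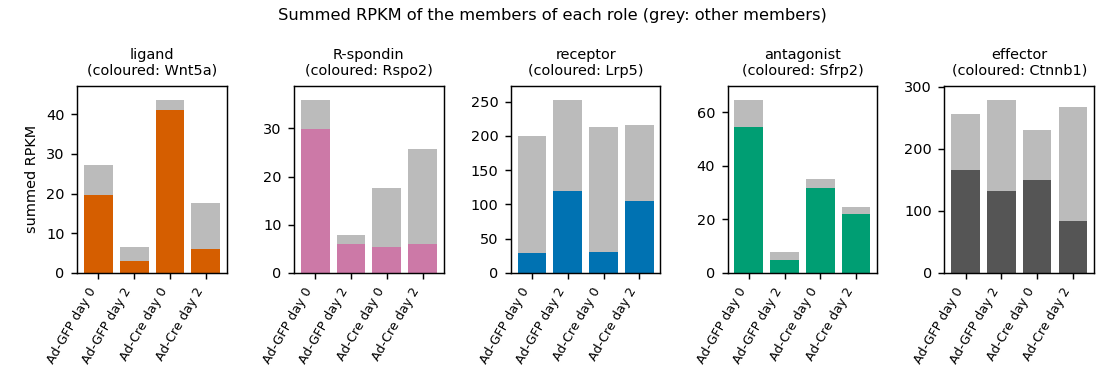
Summed level of all members of each role in the 4 libraries, in RPKM from 0, with the leading member coloured and the others grey. Ligand, antagonist and R-spondin sums were lowest with Ad-GFP at D2 (6.67, 7.91 and 7.97 RPKM), and receptor and effector sums lay between 199.5 and 253 and between 231 and 279 RPKM.

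Of the 14 receptors and co-receptors, 13 were expressed, and their summed level stayed between 199.5 and 253 RPKM. Inside that sum, *Lrp5*, a single-pass co-receptor of canonical signalling, had 29.3 RPKM at D0 and 119 at D2 with Ad-GFP (2603 and 14158 reads), and 30.9 at D0 and 106 at D2 with Ad-Cre (3122 and 9845 reads). Both libraries of D2 were high, and *Lrp5* went from 14.7% to 47.1% of the receptor sum with Ad-GFP and from 14.5% to 48.8% with Ad-Cre. The day ratio was 2.02 (1.96 to 2.09) and 1.77 (1.71 to 1.83), and Ad-Cre over Ad-GFP stayed at 0.08 (0.00 to 0.16) and −0.17 (−0.21 to −0.14). Its relative *Lrp6* had 18.46 RPKM at D0 and 40.5 at D2 with Ad-GFP (2973 and 8723 reads), and 16.5 at D0 and 18.4 at D2 with Ad-Cre (3015 and 3103 reads). Ad-GFP cells at D2 stood alone, with a day ratio of 1.13 (1.07 to 1.19) against 0.16 (0.08 to 0.23) with Ad-Cre, within 2.5-fold in all comparisons. This difference was not seen with the length and GC trends divided out, where the day ratios were 0.93 and 0.94 and Ad-Cre over Ad-GFP at D2 went from −1.14 to −0.20.

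Frizzled proteins are the seven-pass receptors that bind Wnt ligands, and their genes differed in direction. *Fzd4*, the receptor that also binds norrin, was higher at D2 in both populations, with 4.18 RPKM at D0 and 23.4 at D2 with Ad-GFP (265 and 1984 reads), and 4.24 at D0 and 13.2 at D2 with Ad-Cre (305 and 874 reads). The day ratio of *Fzd4* was 2.49 (2.30 to 2.68) and 1.63 (1.44 to 1.83), and at D2 Ad-Cre cells had 1.78-fold less, a log2 ratio of −0.83 that was −0.26 with the length and GC trends divided out. *Fzd9*, a low-level member, had 0.386 RPKM at D0 and 1.63 at D2 with Ad-GFP (14 and 79 reads), and 0.826 at D0 and 1.87 at D2 with Ad-Cre (34 and 71 reads). It too was higher at D2, past 2.5-fold with Ad-GFP at 2.08 (1.25 to 3.01) and short of it with Ad-Cre at 1.18 (0.57 to 1.81), where scaling by summed counts put it past.

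*Fzd1* and *Fzd2*, which are close in sequence, were lower at D2. *Fzd2* had 63.4 RPKM at D0 and 17.3 at D2 with Ad-GFP (3956 and 1439 reads), and 48.4 at D0 and 31.6 at D2 with Ad-Cre (3424 and 2070 reads). Day ratios of −1.88 (−1.97 to −1.79) and −0.61 (−0.69 to −0.53) put it past 2.5-fold with Ad-GFP alone, and 9.58% of its windows matched elsewhere in the genome, the highest share among the 52 genes. *Fzd1* had 37.9 RPKM at D0 and 11.9 at D2 with Ad-GFP (2854 and 1197 reads), and 23.0 at D0 and 11.97 at D2 with Ad-Cre (1966 and 945 reads), with day ratios of −1.67 (−1.77 to −1.57) and −0.94 (−1.06 to −0.83). In both genes the 2 populations were ordered alike at D0, with Ad-Cre cells lower, and at D2 Ad-Cre over Ad-GFP was 0.87 (0.78 to 0.97) for *Fzd2* and 0.01 (−0.12 to 0.13) for *Fzd1*.

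*Fzd7*, *Fzd5* and *Fzd6* were past 2.5-fold lower at D2 with Ad-Cre. *Fzd7* had 18.4 RPKM at D0 and 13.7 at D2 with Ad-GFP (1520 and 1516 reads), and 39.7 at D0 and 12.3 at D2 with Ad-Cre (3728 and 1065 reads). Ad-Cre cells at D0 were 2.162-fold above Ad-GFP cells and the other 3 libraries were close together. *Fzd5* had 3.64 RPKM at D0 and 2.34 at D2 with Ad-GFP (433 and 372 reads), and 11.3 at D0 and 1.48 at D2 with Ad-Cre (1522 and 184 reads). Ad-Cre cells at D0 were again the highest, 3.10-fold above Ad-GFP cells at 1.63 (1.48 to 1.79), and at D2 the order was the opposite, at −0.67 (−0.93 to −0.41), or −0.16 with the length and GC trends divided out. *Fzd6*, known from planar polarity, had 4.28 RPKM at D0 and 1.18 at D2 with Ad-GFP (301 and 111 reads), and 4.03 at D0 and 0.475 at D2 with Ad-Cre (321 and 35 reads). It was lower at D2 in both, at −1.86 (−2.19 to −1.54) and −3.08 (−3.63 to −2.58), and Ad-Cre cells at D2 were lowest, at −1.31 (−1.91 to −0.76), just short of 2.5-fold. That value was −0.63 with the trends divided out, and past 2.5-fold with the mean of all transcripts of a gene.

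*Ror1* and *Ror2* encode receptor tyrosine kinases that bind WNT5A. *Ror1* had 0.821 RPKM at D0 and 2.38 at D2 with Ad-GFP (50 and 194 reads), and 1.32 at D0 and 1.49 at D2 with Ad-Cre (91 and 95 reads), and its day ratio of 1.54 (1.08 to 2.02) with Ad-GFP was just within 2.5-fold, at 1.30, with the length and GC trends divided out. *Ror2* measured 7.95, 7.999, 7.77 and 5.00 RPKM and stayed within 2.5-fold, as did *Fzd8*, at 9.66, 10.1, 23.4 and 12.2 RPKM, and *Fzd3*, at 1.18, 1.45, 1.23 and 0.631 RPKM. Between Ad-Cre and Ad-GFP cells, 1 of the 13 receptors (*Fzd5*) was past 2.5-fold at D0 (1.75% of all expressed genes were higher) and 0 were at D2 (9.17% higher and 9.61% lower), where their log2 ratios ran from −1.31 to 0.87.

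**Figure D3:**
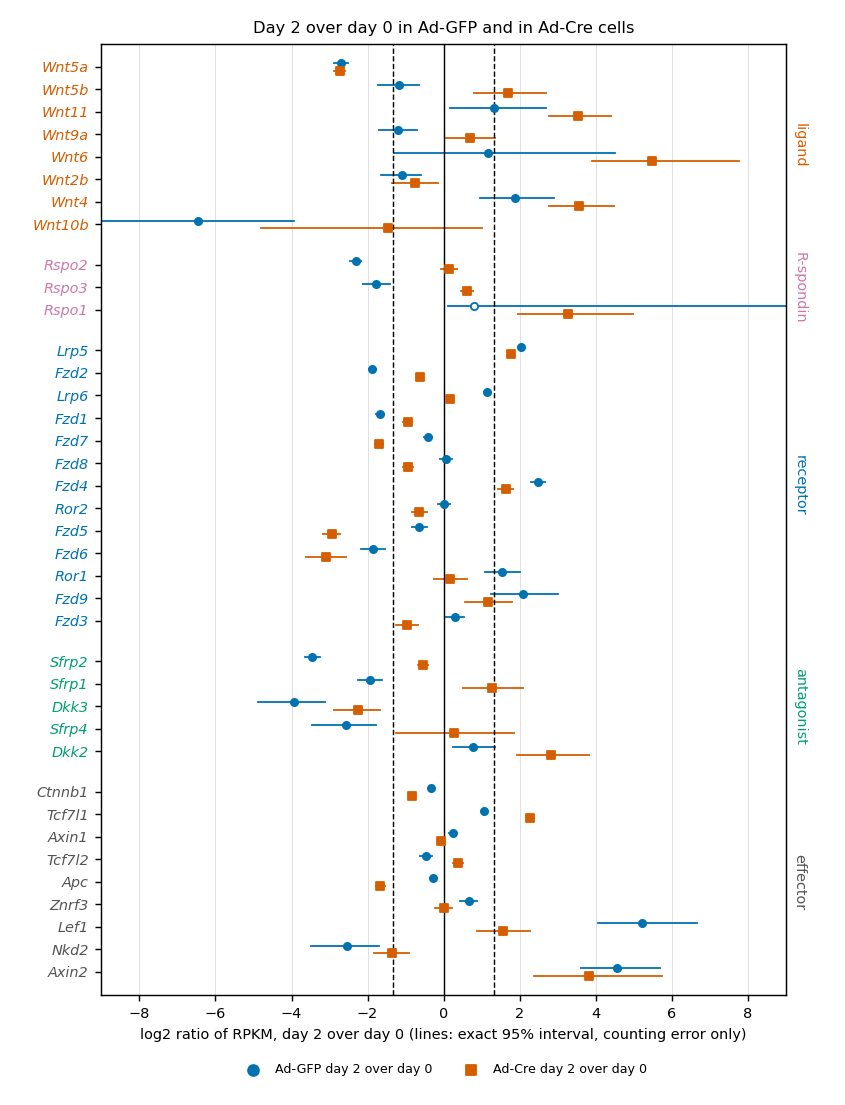
Log2 ratio of RPKM at D2 over D0 for the 38 expressed genes by role and cell population, with exact 95% counting intervals. Dashed lines mark 2.5-fold, and the open point is *Rspo1* with Ad-GFP, drawn against 3 reads in place of 0 at D0. *Wnt5a* lies near −2.7 in both populations (−2.69 and −2.73), whereas *Sfrp2* lies at −3.45 with Ad-GFP and −0.53 with Ad-Cre.

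The core of the canonical route was present in every library. *Ctnnb1*, which encodes β-catenin, had 166 RPKM at D0 and 132 at D2 with Ad-GFP (10342 and 10955 reads), and 151 at D0 and 84.4 at D2 with Ad-Cre (10646 and 5516 reads). It was the most abundant of the 52 genes in 3 libraries and the third with Ad-Cre at D2, after *Tcf7l1* and *Lrp5*. Its day ratio was −0.34 (−0.37 to −0.30) with Ad-GFP and −0.83 (−0.88 to −0.79) with Ad-Cre, and Ad-Cre over Ad-GFP at D2 was −0.64 (−0.69 to −0.59), none of them past 2.5-fold. With the length and GC trends divided out the last was −0.18. Of the destruction complex scaffolds, *Axin1* had 22.05 RPKM at D0 and 26.1 at D2 with Ad-GFP (1433 and 2270 reads), and 26.3 at D0 and 25.3 at D2 with Ad-Cre (1938 and 1722 reads), and lay between log2 ratios of −0.06 and 0.25 in the 4 comparisons. *Apc* had 9.39 RPKM at D0 and 7.78 at D2 with Ad-GFP (2011 and 2227 reads), and 10.1 at D0 and 3.19 at D2 with Ad-Cre (2461 and 717 reads). Ad-Cre cells at D2 were lowest, with a day ratio of −1.67 (−1.79 to −1.54) that was −0.84, within 2.5-fold, after the length and GC trends were divided out, and the transcript of *Apc*, at 12346 bases in the annotation, is the longest of the 52.

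*Tcf7l1*, which encodes a TCF factor known mainly as a repressor, had 45.1 RPKM at D0 and 94.1 at D2 with Ad-GFP (2160 and 6024 reads), and 27.6 at D0 and 134 at D2 with Ad-Cre (1500 and 6751 reads). Both libraries of D2 were higher, with day ratios of 1.06 (0.99 to 1.13) with Ad-GFP and 2.28 (2.20 to 2.37) with Ad-Cre, the latter past 2.5-fold. At D2 *Tcf7l1* made up a larger part of the effector level with Ad-Cre, at 134 RPKM against 84.4 for *Ctnnb1*. *Tcf7l2*, which encodes a TCF factor that can activate targets with β-catenin, measured 9.84, 7.16, 10.0 and 13.0 RPKM, and *Znrf3*, which encodes a ligase that removes Frizzled proteins, 2.36, 3.73, 2.89 and 2.89 RPKM.

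*Lef1* and *Axin2* were the 2 genes past 2.5-fold in all 4 comparisons. *Lef1*, which encodes the LEF member of the TCF/LEF factors, lies at chr3:130813389-130927274 on the plus strand of NCBI37/mm9 (NM_010703), and had 0.142 RPKM at D0 and 5.26 at D2 with Ad-GFP (6 and 297 reads), and 0.521 at D0 and 1.53 at D2 with Ad-Cre (25 and 68 reads). Reads were fewest with Ad-GFP at D0 and most with Ad-GFP at D2, with both Ad-Cre libraries between them. The day ratio was 5.21 (4.07 to 6.67) with Ad-GFP, 37.0-fold higher, and 1.56 (0.88 to 2.28) with Ad-Cre, 2.94-fold higher. Ad-Cre over Ad-GFP was 1.88 (0.56 to 3.45) at D0 and −1.78 (−2.18 to −1.39) at D2, so that the order of the populations differed between the days.

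*Axin2*, which encodes a destruction complex scaffold and feedback inhibitor of the pathway, is a widely used transcript readout of canonical signalling. The gene lies at chr11:108781663-108812097 on the plus strand of NCBI37/mm9 (NM_015732). It had 0.123 RPKM at D0 and 2.88 at D2 with Ad-GFP (9 and 282 reads), and 0.0481 at D0 and 0.677 at D2 with Ad-Cre (4 and 52 reads). Both D2 libraries were higher than those of D0, and Ad-GFP cells at D2 were the one library over 1 RPKM. The day ratio was 4.55 (3.61 to 5.69) with Ad-GFP and 3.81 (2.37 to 5.74) with Ad-Cre, 23.4-fold and 14.1-fold higher. At D2 Ad-Cre cells had 4.25-fold less *Axin2*, at −2.09 (−2.54 to −1.66). The D0 ratio of −1.35 (−3.50 to 0.49) rested on 9 and 4 reads, its interval held 0 and it was within 2.5-fold under TMM scaling. With a pseudocount of 1 RPKM neither *Lef1* nor *Axin2* was past 2.5-fold between the populations at D2. *Nkd2*, whose product binds Dishevelled and dampens the pathway, had 1.101 RPKM at D0 and 0.189 at D2 with Ad-GFP (61 and 14 reads), and 2.53 at D0 and 0.981 at D2 with Ad-Cre (159 and 57 reads). It was lower at D2, at −2.54 (−3.49 to −1.69) and −1.37 (−1.83 to −0.92), and higher with Ad-Cre on both days, past 2.5-fold at D2 at 2.38 (1.51 to 3.33). The Ad-Cre day ratio was within 2.5-fold with the length and GC trends divided out, at −1.24, and when scaled by summed counts, and a pseudocount of 1 RPKM put each of these *Nkd2* ratios within it.

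Other widely used targets of the pathway varied in direction. Of 18 listed target genes 13 were expressed, and at D2 of Ad-GFP cells 2 of these were higher and 5 lower than at D0 (8.18% and 12.6% of all expressed genes), with 1 higher and 5 lower with Ad-Cre (9.34% and 10.2%). *Ccnd1*, which encodes cyclin D1, had 19.0 RPKM at D0 and 0.676 at D2 with Ad-GFP (1242 and 59 reads), and 2.92 at D0 and 0.847 at D2 with Ad-Cre (216 and 58 reads), a day ratio of −4.81 (−5.22 to −4.44) with Ad-GFP. It was high in the Ad-GFP library of D0 alone. *Ccn5*, a secreted protein gene induced by WNT1, had 41.6 RPKM at D0 and 2.28 at D2 with Ad-GFP (1271 and 93 reads), and 58.9 at D0 and 3.94 at D2 with Ad-Cre (2041 and 126 reads), lower at D2 in both populations. *Vegfa*, which encodes a vascular growth factor, went the other way, with 39.6 RPKM at D0 and 208 at D2 with Ad-GFP (2404 and 16855 reads), and 27.2 at D0 and 52.9 at D2 with Ad-Cre (1875 and 3365 reads) and day ratios of 2.39 (2.33 to 2.45) and 0.96 (0.88 to 1.04). *Ccn4*, a matricellular gene of the same family, had 33.9 RPKM at D0 and 4.87 at D2 with Ad-GFP (2927 and 562 reads), and 128 at D0 and 23.8 at D2 with Ad-Cre (12519 and 2152 reads). It was lower at D2 in both populations, as *Wnt5a* was, and higher with Ad-Cre on both days, at 1.91 (1.86 to 1.97) and 2.29 (2.15 to 2.42).

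**Figure D4:**
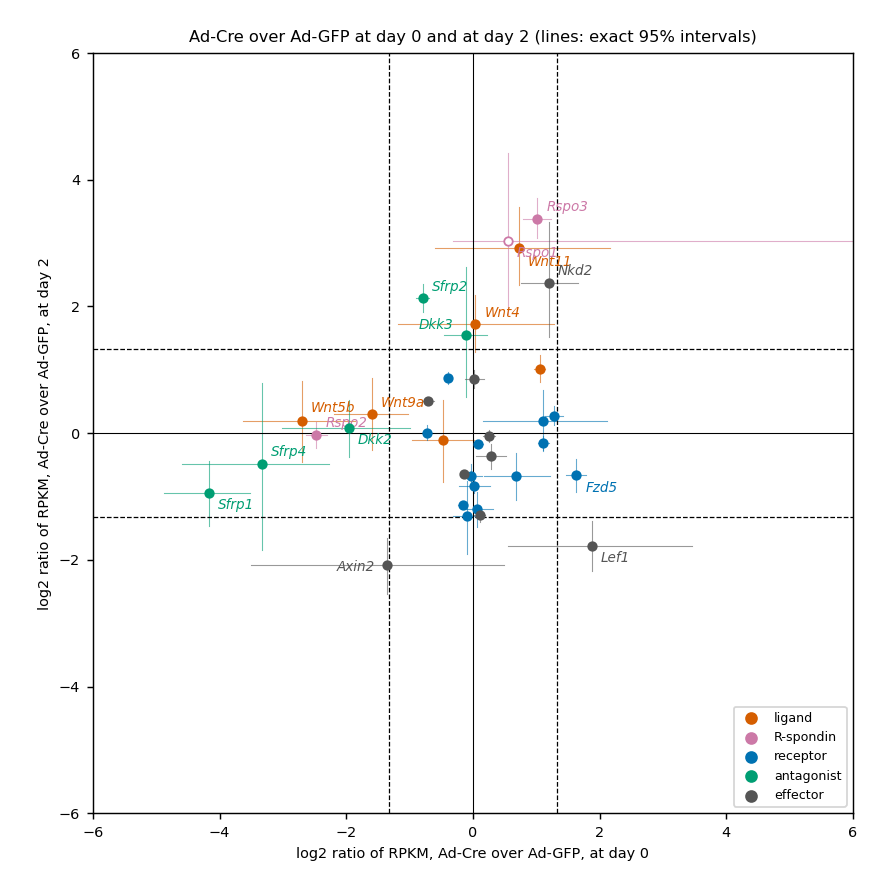
Log2 Ad-Cre over Ad-GFP ratio of RPKM at D0 (horizontal) and at D2 (vertical) for the expressed Wnt genes, coloured by role, with exact 95% counting intervals. Dashed lines mark 2.5-fold, and the open point is *Rspo1*, drawn at D0 against 3 reads in place of 0 with Ad-GFP. *Sfrp2* (−0.79 and 2.13) and *Lef1* (1.88 and −1.78) lie in opposite quadrants, and *Wnt6* and *Wnt10b* are left out because they had at most 3 reads in both libraries of one day.

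The 14 genes that never exceeded 1 RPKM were *Wnt1*, *Wnt2*, *Wnt3*, *Wnt3a*, *Wnt7b*, *Wnt10a* and *Wnt16* among the ligands, *Fzd10* among the receptors, *Sfrp5*, *Frzb*, *Dkk1* and *Wif1* among the antagonists, and *Tcf7* and *Nkd1* among the effectors. They had 0 to 50 reads in a library and at most 0.654 RPKM. Of these, 8 (*Fzd10*, *Wif1*, *Wnt1*, *Wnt10a*, *Wnt2*, *Wnt3*, *Wnt3a* and *Wnt7b*) had at most 3 reads in each library, so that a difference between libraries was not detectable at this depth. The classical canonical ligands *Wnt1*, *Wnt3* and *Wnt3a* are among them.

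Whether the change over time differed between the populations was described by dividing the day ratio of Ad-Cre cells by that of Ad-GFP cells, for the 37 expressed Wnt genes with reads in all 4 libraries. This ratio was past 2.5-fold upward for 13 genes (11.6% of 11665 genes) and downward for 4 (10.9%). All 5 expressed antagonists, both R-spondins with a value and 6 of the 8 expressed ligands were past it upward, which includes a smaller drop over time with Ad-Cre as well as a larger increase. The antagonists ran from 1.67 (0.62 to 2.79) for *Dkk3* to 3.22 (2.37 to 4.09) for *Sfrp1*, and *Sfrp2* had 2.92 (2.68 to 3.17). *Rspo2* had 2.45 (2.18 to 2.71) and *Rspo3* 2.37 (1.99 to 2.76). The 6 ligands ran from 1.68 (0.35 to 2.99) for *Wnt4* to 4.99 (0.42 to 10.89) for *Wnt10b*, whereas *Wnt5a*, at −0.04 (−0.27 to 0.19), differed by less than counting error, though the value was 0.64 with the length and GC trends divided out.

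Of the 13 expressed receptors, 11 had a ratio below 0 on the log2 scale (53.5% of all genes tested), and *Fzd5* at −2.30 (−2.60 to −1.99) and *Ror1* at −1.36 (−2.01 to −0.72) were past 2.5-fold. *Ror1* was within it under TMM, at −1.23, and with the length and GC trends divided out, at −0.79. The receptors past it after that division were *Fzd5* at −1.77 and *Fzd9* at −1.67, followed by *Fzd8* at −1.14 and *Fzd7* at −1.04. Before the division *Fzd9* lay at −0.90 (−2.03 to 0.17), an interval that held 0. *Fzd1*, at 0.73 (0.58 to 0.88), and *Fzd2*, at 1.27 (1.15 to 1.38), were above 0. Among the effectors, *Lef1* had −3.65 (−5.27 to −2.25) and *Apc* −1.39 (−1.54 to −1.24). *Axin2* had −0.74 (−2.64 to 1.47), an interval that held 0. *Apc* was within 2.5-fold under TMM, at −1.26, and lay at −0.31 with the trends divided out. *Tcf7l1* had 1.22 (1.11 to 1.33) in the other direction. Upward, TMM put *Fzd2* at 1.40 and *Tcf7l1* at 1.35 past the cutoff, and the trend division *Tcf7l2* at 1.58 and *Nkd2* at 1.39. The median was 2.05 for the ligands, 2.85 for the antagonists, 2.41 for the R-spondins, −0.98 for the receptors and −0.50 for the effectors, against −0.09 for all genes. The receptor and effector medians shrank to −0.48 and −0.09 with length and GC trends divided out, and under TMM they were −0.85 and −0.37.

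The ligand count follows in large part from the threshold. The 6 ligands past 2.5-fold exceeded 1 RPKM either with Ad-GFP at D0 alone (*Wnt5b*, *Wnt9a* and *Wnt10b*) or with Ad-Cre at D2 alone (*Wnt4*, *Wnt6* and *Wnt11*), and a high value in either library raises this ratio. Of the antagonists, *Sfrp4* likewise exceeded 1 RPKM with Ad-GFP at D0 alone. *Sfrp1*, *Dkk2* and *Dkk3* exceeded it in 2 libraries each, and *Sfrp2* in all 4. Among the 19 genes over 1 RPKM in all 4 libraries, 7 had a ratio above 0 on the log2 scale (*Fzd1*, *Fzd2*, *Sfrp2*, *Rspo2*, *Rspo3*, *Tcf7l1* and *Tcf7l2*) and 12 below 0, against 44.3% and 55.7% of the 9904 genes over 1 RPKM in all 4 libraries. The 12 were *Wnt5a*, the receptors *Fzd4*, *Fzd5*, *Fzd7*, *Fzd8*, *Lrp5*, *Lrp6* and *Ror2* and the effectors *Ctnnb1*, *Axin1*, *Apc* and *Znrf3*. Division by the length and GC trends changed the sign for *Wnt5a* and *Lrp6*, the latter to 0.02, and left *Ctnnb1* at −0.05 and *Znrf3* at −0.09. TMM scaling changed the sign for *Wnt5a*.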

How the data were processed

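The 4 RNA-Seq libraries were assigned to genotype and day from their labels, and Ad-GFP and Ad-Cre are the study's names for the genotypes. The authors counted reads on the exons of RefSeq transcripts of mm9 and deposited unnormalized read counts per transcript. The authors also deposited RPKM, the count divided by exon length and library size. How reads with several matches were treated is not given in the sources used here. The submitters' processing notes also name bedtools 2.16 and SICER 1.1.

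Of 29082 transcripts, 97.8% received a symbol from the RefSeq gene table of GRCm38.p6, and 1 transcript per symbol, that with the most reads, was kept. RPKM ratios carry exact binomial 95% intervals of the reads, and ratios of ratios exact conditional ones; no ratio was formed where both libraries had at most 3 reads, a rule set after the values were seen. Trends over length and GC content were fitted as medians of 20 bins in 5 rounds. Windows of 50 bases were matched to NCBI37/mm9 with blastn 2.17.0, at most 2 mismatches counting as a match, and coordinates come from the GENCODE vM1 annotation of that build. TMM factors came from edgeR 4.0.16 in R 4.3.3, without a test. Computation ran in Python 3.11.15 with scipy 1.17.1, pandas 2.3.3, numpy 2.4.6 and matplotlib 3.10.9. The ratio and trend steps were tested on simulated data. Promoters come from RefSeq, and that of the first start site is printed.

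Named with reads and RPKM were expressed genes past 2.5-fold in any comparison and the 3 highest of each role. Genes outside the 52 were named where they had the highest mean RPKM of their list, or among at most 4 per list past 2.5-fold with at least 100 reads. Genes, lists and rules were chosen with earlier results of these data known, and 12 alternatives were planned.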

Additional observations from a re-analysis of the deposited data

Results flagged for a closer look

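In 6 genes a ratio changed direction between the populations or the days, the larger ratio was past 2.5-fold, and neither counting interval held 0. Genes that changed direction with both ratios within 2.5-fold, such as *Fzd2* between the populations, were not counted. The difference was not tested, since each condition is 1 library. From D0 to D2, *Wnt5b* had a log2 ratio of −1.19 (−1.74 to −0.65) with Ad-GFP and 1.70 (0.80 to 2.69) with Ad-Cre, *Sfrp1* −1.94 (−2.26 to −1.63) and 1.28 (0.51 to 2.09), and *Rspo3* −1.77 (−2.12 to −1.42) and 0.61 (0.45 to 0.76). Between Ad-Cre and Ad-GFP cells, *Fzd5* had 1.63 (1.48 to 1.79) at D0 and −0.67 (−0.93 to −0.41) at D2 (−0.16 with length and GC trends divided out), *Sfrp2* −0.79 (−0.90 to −0.69) and 2.13 (1.92 to 2.35), and *Lef1* 1.88 (0.56 to 3.45) and −1.78 (−2.18 to −1.39).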

How the results depend on the processing

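No paired analysis was possible because each condition has 1 library. With the sum of counts, TMM factors, at least 20 reads, the mean of all transcripts or the trend division, each of the 8 counts of Wnt genes stayed within 1.5 times its reported value. The other settings moved some of them, and the share of all genes under the same setting follows each in parentheses. A cutoff of 2-fold gave 8 genes higher with Ad-Cre at D0 (3.09%) and 6 lower at D2 (17.2%). A cutoff of 4-fold gave 5 higher (3.53%) and 7 lower (7.62%) over time with Ad-GFP, 7 (4.04%) and 4 (4.50%) with Ad-Cre, 0 higher (0.717%) and 5 lower (1.93%) with Ad-Cre at D0, and 1 lower at D2 (2.79%). Without the RPKM threshold 4 were higher with Ad-Cre at D0 (1.91%). A mean RPKM above 1 left 6 higher over time with Ad-Cre (8.28%), 3 lower at D0 (2.90%), and 5 higher (8.25%) and 1 lower (9.12%) at D2, and a threshold applied to the Ad-GFP libraries left 7 higher over time with Ad-Cre (8.47%) and 4 higher at D2 (7.88%). A pseudocount of 1 RPKM left 4 higher over time with Ad-GFP (5.12%), 6 higher (5.29%) and 5 lower (5.77%) with Ad-Cre, 1 (0.852%) and 3 (1.71%) at D0, and 4 (5.33%) and 0 (4.72%) at D2. Asking the interval itself to pass left 4 higher over time with Ad-GFP (5.19%), and 1 higher (0.885%) and 5 lower (2.24%) at D0. The calls lost there were those of *Wnt4*, *Wnt11*, *Fzd9* and *Ror1* over time with Ad-GFP, *Wnt5b*, *Lef1*, *Wnt10b* and *Nkd2* with Ad-Cre, *Lef1*, *Wnt9a*, *Dkk2* and *Axin2* at D0, and *Wnt4* and *Dkk3* at D2. These settings admit fewer or more genes by construction. No ratio of a called gene changed sign under the settings run. TMM moved the median log2 ratio of all expressed genes from 0.14 to 0.04 over time with Ad-GFP and from −0.14 to 0.02 between the populations at D2, and scaling by summed counts moved it from −0.01 to 0.17 over time with Ad-Cre. Depth limits the genes under about 10 reads in a library, such as *Axin2*, *Wnt6* and *Wnt10b*, whose intervals span several log2 units.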

Other observations

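Pathway genes outside the 52 were followed by lists, and of 66 such genes 49 were expressed. Over time 5 of the 49 (10.2%) were past 2.5-fold higher and 4 (8.16%) lower with Ad-GFP, against 8.18% and 12.6% of all expressed genes, and 5 (10.2%) and 2 (4.08%) with Ad-Cre, against 9.34% and 10.2%. Between the populations 1 (2.04%) was higher and 0 lower at D0, against 1.75% and 3.8%, and 2 (4.08%) were higher and 4 (8.16%) lower at D2, against 9.17% and 9.61%. *Igfbp4*, which encodes an insulin-like growth factor binding protein also described as a Wnt inhibitor, had 19.4 RPKM at D0 and 905 at D2 with Ad-GFP (689 and 43001 reads), and 11.5 at D0 and 589 at D2 with Ad-Cre (463 and 21931 reads). Both D2 libraries were high, with day ratios of 5.55 (5.44 to 5.66) and 5.68 (5.55 to 5.82). *Gpc4*, a cell surface glypican, had 51.6 RPKM at D0 and 19.97 at D2 with Ad-GFP (2065 and 1067 reads), and 98.5 at D0 and 22.8 at D2 with Ad-Cre (4469 and 955 reads), and was highest with Ad-Cre at D0. *Apcdd1*, a membrane inhibitor of the pathway, had 13.9 RPKM at D0 and 20.8 at D2 with Ad-GFP (670 and 1341 reads), and 8.37 at D0 and 5.31 at D2 with Ad-Cre (457 and 268 reads), and was lowest with Ad-Cre at D2, at −1.97 (−2.17 to −1.78) against Ad-GFP cells.

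Of the Groucho co-repressors that bind TCF/LEF factors, *Tle2* was lower and *Tle3* higher at D2 with Ad-GFP, and both had ratios above 0 with Ad-Cre. *Tle2* had 39.4 RPKM at D0 and 14.0 at D2 with Ad-GFP (1843 and 877 reads), and 27.0 at D0 and 92.9 at D2 with Ad-Cre (1431 and 4556 reads), with day ratios of −1.49 (−1.61 to −1.37) with Ad-GFP and 1.78 (1.70 to 1.87) with Ad-Cre. *Tle3* had 23.3 RPKM at D0 and 62.0 at D2 with Ad-GFP (2085 and 7408 reads), and 22.3 at D0 and 25.6 at D2 with Ad-Cre (2260 and 2400 reads), with 1.41 (1.34 to 1.48) and 0.20 (0.12 to 0.28). Ad-GFP cells at D2 were thus the lowest library for *Tle2* and the highest for *Tle3*. The tankyrases, which mark AXIN for degradation, were lowest with Ad-Cre at D2, *Tnks* with 15.6 RPKM at D0 and 20.7 at D2 with Ad-GFP (1728 and 3069 reads), and 15.4 at D0 and 5.89 at D2 with Ad-Cre (1941 and 684 reads), and *Tnks2* with 19.5 RPKM at D0 and 30.5 at D2 with Ad-GFP (2173 and 4551 reads), and 21.3 at D0 and 10.9 at D2 with Ad-Cre (2696 and 1268 reads). Single-gene values with the length and GC trends divided out were kept only for expressed genes among the 52, so none are given for these genes. *Wls*, which carries Wnt proteins to the cell surface, measured 65.5, 39.7, 65.8 and 33.6 RPKM in the library order of the report, *Ptk7*, a polarity co-receptor, 74.2, 32.2, 58.6 and 30.1 RPKM, and *Ctbp1*, a co-repressor, 114, 108, 129 and 105 RPKM. Of the polarity genes, *Prickle1* measured 1.81, 6.51, 4.45 and 7.70 RPKM and *Prickle2* 1.70, 0.286, 1.63 and 0.676 RPKM, and of the cytoplasmic genes *Apc2* 2.69, 0.633, 2.68 and 1.68 RPKM, *Daam1* 2.20, 3.38, 2.26 and 1.25 RPKM and *Csnk1a1*, a kinase of the destruction complex with the highest mean of that list, 58.6, 90.2, 61.2 and 37.5 RPKM. The glypican *Gpc3* measured 1.03, 2.67, 0.836 and 3.15 RPKM. The ligands *Wnt7a*, *Wnt8a*, *Wnt8b* and *Wnt9b* had 0 or 1 read in each library.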
